A study of Mus musculus with 6 samples.

Results

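The genes described here encode the carriers that bring amino acids, hexoses and monocarboxylates such as lactate across cell membranes. They were all the genes of the families Slc1, Slc2, Slc7, Slc16 and Slc38, taken by their symbols, and came to 59 of the 48368 gene symbols measured. Slc1 and Slc38 carriers are mostly driven by sodium or proton gradients, many Slc7 carriers exchange one amino acid for another, Slc2 carriers let sugars pass down their gradient, and Slc16 carriers of lactate move it together with a proton. Fibroblasts of tumours have been studied as cells that take up glucose and glutamine and release lactate and amino acids that tumour cells can use. Several of these carriers work only with a partner chain, and their genes are known targets of the transcription factors ATF4 (amino acid shortage), HIF-1 (low oxygen), MYC and NRF2 (oxidative stress).

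The cells were cancer-associated fibroblasts (CAFs), cultured as primary cells after isolation from mammary tumours of MMTV-PyMT mice, in which a viral middle T transgene under a mammary tumour virus promoter gives mammary cancer. They came from mice homozygous (KO, Hic-5 -/-) or heterozygous (HET, Hic-5 +/-) for loss of Hic-5, an adaptor protein of focal adhesions encoded by Tgfb1i1, with 3 libraries of each genotype by label and no wild type group analysed here. Both groups carry the PyMT transgene, both were grown in DMEM:F12 medium with serum and added glutamine, and the HET cells themselves carry 1 altered Hic-5 allele. The series calls the libraries technical triplicates, and nothing says that they came from separate cultures or animals. The p-values below therefore measure only the spread between these libraries. Where that spread comes from was not tested. Libraries of the same label differed in the targeted gene and in cell type markers, as given next.

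The libraries held between 24954273 and 42470598 estimated counts each, and 17584 genes were tested. The targeted gene was at 90.4, 0.232 and 156 CPM (counts relative to the library total, scaled between libraries) in KO replicates 1 to 3, against 223, 348 and 125 CPM in HET replicates 1 to 3. It was therefore plainly present in KO replicates 1 and 3, and the groups are named KO-labelled and HET-labelled below. The 12 fibroblast markers summed to 8084, 7379.6 and 10333 CPM in KO replicates 1 to 3, against 27172, 18888 and 11595 CPM in HET replicates 1 to 3, and 10 of the 11 tested were fitted lower in KO-labelled libraries (median log2 fold change -1.09). In the library labelled KO 2, the fibroblast markers Col1a2, Col1a1, Dcn and Thy1 were all at or under 2.56 CPM, and the epithelial keratin Krt18 reached 37.9 CPM, against at most 2.93 CPM elsewhere. The other 5 libraries had Col1a1 at 274 CPM or more. Not all of the 12 fibroblast markers were low in KO replicate 2, where Fn1 was at 4176 CPM and the sum was 7379.6 CPM. The 11 epithelial markers summed to 28.5, 90.2 and 28.8 CPM in KO replicates 1 to 3, against 65.8, 18.0 and 19.0 CPM in HET replicates 1 to 3. Markers other than Krt18 made up most of the sum in HET replicate 1. Of the 7 epithelial markers tested, 6 were fitted higher in KO-labelled libraries (median log2 fold change 2.64). An unadjusted p under 0.05 (edgeR) was found for 3 of these, against 4.3% of all genes on that side. Transcripts of 10 leukocyte markers summed to 28.7, 17.3 and 1144 CPM in KO replicates 1 to 3, against 31.9, 1425 and 50.7 CPM in HET replicates 1 to 3, and Lyz2 made up most of it in KO replicate 3 and HET replicate 2. Proliferation genes summed to 858, 2576 and 729 CPM in KO replicates 1 to 3, against 1077, 278 and 486 CPM in HET replicates 1 to 3, and 9 of 10 were fitted higher in KO-labelled libraries (median 1.27). Their part in the carriers' values was not tested, and in bulk RNA fewer cells of a type and less RNA per cell cannot be told apart.

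Of the 59 carriers, 42 had enough counts to be tested, and the other 17 were low in every library. Slc7a12 had no count in any library, 10 of the untested genes had at most 3 counts in each, and the highest untested value was 1.22 CPM, for Slc38a3 in HET replicate 3. The untested genes include carriers best known from other tissues, such as Slc2a2 and Slc2a4, the glucose carriers of hepatocytes and of insulin-responsive muscle and fat, and Slc7a9, a kidney cystine carrier. On a scale of RPKM over transcript length, which allows genes to be compared, the highest mean levels over the 6 libraries belonged to Slc38a2 (64.0), Slc38a10 (61.1), Slc7a5 (40.6), Slc2a1 (32.7), Slc7a6 (22.7) and Slc1a5 (20.3). The carriers together held 0.152, 0.183 and 0.137% of the counts in KO replicates 1 to 3, against 0.194, 0.146 and 0.122% in HET replicates 1 to 3, so the groups overlapped.

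No carrier passed an adjusted p of 0.05 between KO-labelled and HET-labelled libraries by edgeR's quasi-likelihood test, where 0.0% of all tested genes did. The carriers' adjusted p-values ran from 0.579 to 0.993 (edgeR). DESeq2 called 0 carriers too, with a lowest adjusted p of 0.146, while it called 1.33% of all genes. At an unadjusted p under 0.05 there were 2 carriers, both lower in KO-labelled libraries, Slc1a5 and Slc16a4, and none was higher. Among all tested genes, 8.59% had such a p by edgeR, 4.29% on the lower side and 4.3% on the higher side, so 2 of 42 did not exceed that background. DESeq2 and limma-voom each gave 2 carriers as well, against 11.2% of all genes by DESeq2 and 8.75% by limma-voom. The 3 KO values stood wholly apart from the 3 HET values in 4 carriers. Slc38a1 was above, against 8.1% of all genes, and Slc1a5, Slc16a4 and Slc16a9 were below, against 7.42% of all genes. For both directions together the background was 15.5% of all genes, so 4 of 42 did not exceed it. The fitted value was higher in KO-labelled libraries for 14 carriers and lower for 28, with a median log2 fold change of -0.28, against a median of 0.01 and 49.1% fitted lower over all tested genes. A fitted difference of at least 2-fold was found for 11 carriers (26.2%), against 14.9% of all tested genes, without passing the test. These differences came with wide errors, and the values follow library by library.

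**Figure D1:**
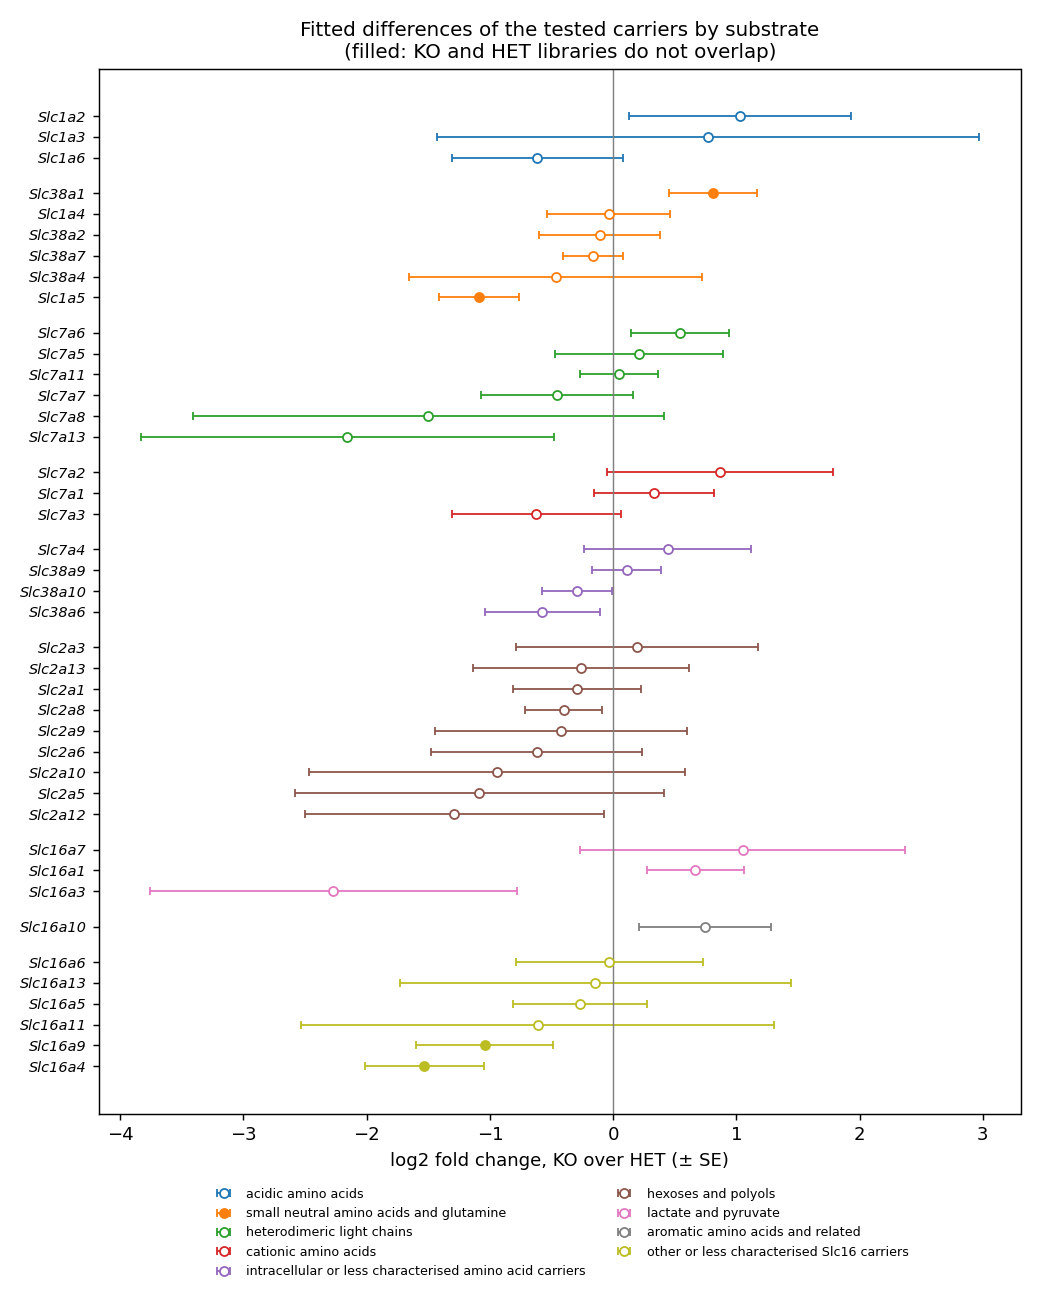
Fitted log2 fold change, KO over HET, of the tested carriers (x axis; whiskers are SE from the edgeR fit), grouped by substrate down the page. Filled points are the 4 carriers whose 3 KO and 3 HET values do not overlap; most whiskers reach 0, and the widest belong to carriers with 1 or 2 very high or very low libraries, such as Slc1a3 and Slc7a8.

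Carriers of small neutral amino acids and glutamine included one gene that was lower and one that was higher in every KO-labelled library. Of 9 such genes 6 were tested, with 1 fitted higher and 5 lower in KO-labelled libraries and a median log2 fold change of -0.14. Slc1a5 encodes ASCT2, the sodium-dependent exchanger known for glutamine uptake in growing cells (chromosome 7, from 16781340 to 16798274 on the + strand, GRCm38). It stood at 37.6, 23.3 and 46.6 CPM in KO replicates 1 to 3, against 77.4, 56.8 and 95.0 CPM in HET replicates 1 to 3. Every KO-labelled library was below every HET-labelled one, with the lowest value in KO replicate 2 and the highest in HET replicate 3. The log2 fold change was -1.09 ± 0.33 (SE, n = 3 each), with an unadjusted p of 0.0141 and an adjusted p of 0.579 by edgeR. Its unadjusted p stayed under 0.05 in 16 of 17 alternative analyses, the exception being the one without HET replicate 3.

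Slc38a1 encodes SNAT1, a sodium-coupled importer of glutamine, alanine and related amino acids (chromosome 15, from 96571418 to 96642913 on the - strand). It showed the opposite order, at 34.8, 69.2 and 31.8 CPM in KO replicates 1 to 3, against 31.2, 23.2 and 22.9 CPM in HET replicates 1 to 3. The groups did not overlap, but KO replicate 3 and HET replicate 1 were close, and KO replicate 2 stood far above the other 5 libraries. The log2 fold change was 0.81 ± 0.35 (SE; adjusted p = 0.588, edgeR), and 0.37 without KO replicate 2. Its neighbour Slc38a2 (SNAT2), the family's best known target of amino acid shortage, was the highest carrier of all per transcript length. It was measured at 518, 173 and 170.2 CPM in KO replicates 1 to 3, against 370.2, 248 and 310.4 CPM in HET replicates 1 to 3. The KO-labelled libraries spanned the whole HET range, and the log2 fold change was -0.11 ± 0.49 (SE; adjusted p = 0.948, edgeR). Without KO replicate 3 the value was 0.17, the other way.

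Slc1a4 (ASCT1), an exchanger of alanine, serine and cysteine, was at 51.1, 110.3 and 35.8 CPM in KO replicates 1 to 3, against 99.7, 59.9 and 42.8 CPM in HET replicates 1 to 3. Slc38a7 (SNAT7), which exports glutamine from lysosomes, varied least within its group, at 24.2, 20.9 and 16.8 CPM in KO replicates 1 to 3, against 20.3, 27.2 and 21.8 CPM in HET replicates 1 to 3. The groups overlapped for both genes, with log2 fold changes of -0.04 ± 0.50 and -0.16 ± 0.24 (SE). The direction of Slc1a4 turned when libraries were scaled by size alone (0.14). Slc38a4 (SNAT4) was at most 2.30 CPM in any library. Slc1a5 made up 10.5, 15.3 and 29.2% of the summed Slc1a5, Slc38a1 and Slc38a2 transcript per length in KO replicates 1 to 3, against 25.1, 26.7 and 33.0% in HET replicates 1 to 3, with KO replicate 3 inside the HET range.

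**Figure D2:**
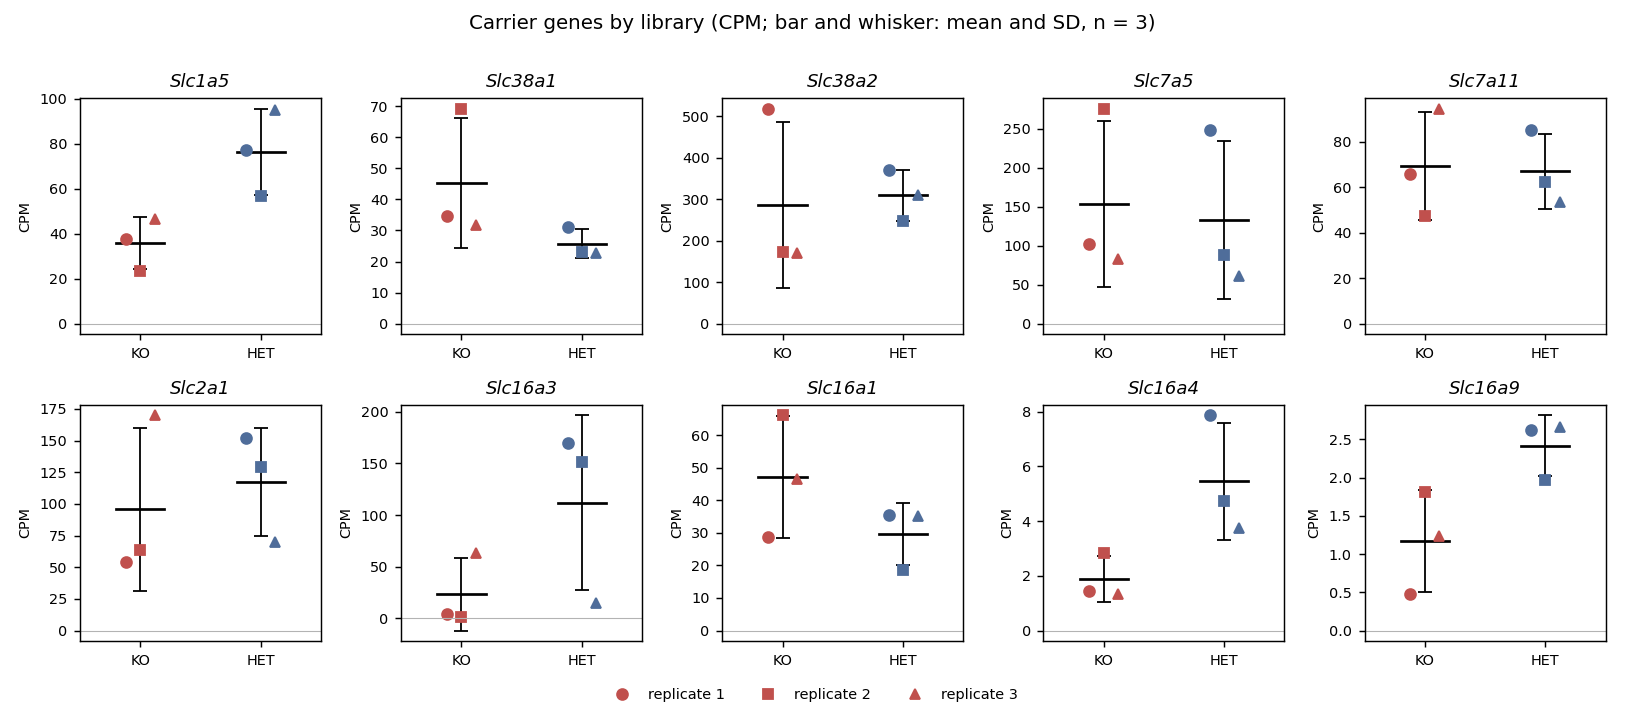
CPM (y axis) of 10 carriers in each library, KO left and HET right, with the symbol giving the replicate and the bar and whisker the mean and SD of 3 libraries. Slc1a5, Slc16a4 and Slc16a9 lie lower and Slc38a1 higher in all 3 KO-labelled libraries, while for Slc2a1 and Slc16a3 KO replicate 3 lies above the other KO libraries and HET replicate 3 below the other HET libraries.

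Many light chains of the heterodimeric exchangers form complexes with the heavy chain CD98hc, encoded by Slc3a2, which carries them to the cell surface. Of the 10 light chain genes, whatever their heavy chain, 6 were tested, with 3 fitted higher and 3 lower. Their median log2 fold change was -0.20, and its sign turned in some alternatives. Slc7a5 (LAT1) takes up leucine and other large neutral amino acids and was at 102, 276 and 82.6 CPM in KO replicates 1 to 3, against 248, 88.7 and 60.6 CPM in HET replicates 1 to 3. In each group 1 library, KO replicate 2 or HET replicate 1, stood far above the others, and the log2 fold change was 0.21 ± 0.68 (SE). Slc7a6 (y+LAT2), which exchanges cationic for neutral amino acids, had its peaks in the same libraries, at 62.5, 155 and 86.0 CPM in KO replicates 1 to 3, against 94.2, 54.7 and 59.1 CPM in HET replicates 1 to 3. The partner Slc3a2 was again highest there, at 152, 199.7 and 110.1 CPM in KO replicates 1 to 3, against 191, 105 and 115 CPM in HET replicates 1 to 3. None of these 3 genes separated the labels, and their adjusted p-values were 0.929 for Slc7a5, 0.675 for Slc7a6 and 0.882 for Slc3a2 (edgeR). KO replicate 2 and HET replicate 1 also had the highest summed proliferation transcripts, and that relation was not tested.

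Slc7a11 (xCT) imports cystine in exchange for glutamate and so feeds glutathione synthesis. It was among the steadiest of the abundant carriers, at 66.0, 47.6 and 94.6 CPM in KO replicates 1 to 3, against 85.4, 62.2 and 53.6 CPM in HET replicates 1 to 3. The groups overlapped fully, with a log2 fold change of 0.05 ± 0.32 (SE; adjusted p = 0.965, edgeR). Slc7a7 (y+LAT1) was lower, at 2.39 to 9.78 CPM over all 6 libraries. Slc7a8 (LAT2), a second carrier of large neutral amino acids, was at 0.0682, 0.0258 and 6.70 CPM in KO replicates 1 to 3, against 7.62, 10.9 and 0.510 CPM in HET replicates 1 to 3. KO replicate 3, HET replicate 1 and HET replicate 2 thus held nearly all of its transcript, and the log2 fold change of -1.50 ± 1.91 (SE) was smaller than its error. The heavy chain Slc3a1, partner of the kidney cystine carrier, was at or under 0.341 CPM everywhere.

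The Slc7a11 promoter carries an element of the kind bound by ATF4 with C/EBP proteins, and it is shown because this carrier is a known ATF4 target. In RefSeq's GRCm38.p6 table, 43 carriers had promoter windows, 53 in all, and each was searched over its 250 bases before the start. The letters TGATGNAA, on either strand, were in 5.66% of the carrier windows and in 3.45% of all 32851 windows. The Slc7a11 window, chr3:50443614-50443863 on the - strand, held 2 copies, ending 58 and 39 bases before the start, in capitals here 5′ to 3′.
Slc7a11: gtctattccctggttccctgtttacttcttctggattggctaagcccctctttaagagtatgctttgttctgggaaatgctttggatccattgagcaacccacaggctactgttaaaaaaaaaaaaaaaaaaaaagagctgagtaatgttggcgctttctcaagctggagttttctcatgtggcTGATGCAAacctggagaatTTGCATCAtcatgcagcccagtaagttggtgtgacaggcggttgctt
The other carrier with a copy was Slc7a7. A match is a description of the letters and not of binding.

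Carriers of cationic amino acids supply arginine and lysine, and all 3 were tested. Slc7a1 (CAT1), the widely expressed one, was at 62.1, 167 and 145 CPM in KO replicates 1 to 3, against 152, 88.1 and 57.5 CPM in HET replicates 1 to 3. Slc7a2 (CAT2), known from macrophages and liver, ranged more widely, at 4.19, 66.8 and 23.5 CPM in KO replicates 1 to 3, against 8.50, 18.1 and 25.2 CPM in HET replicates 1 to 3. KO replicate 2 held the highest value of both genes and KO replicate 1 the lowest of Slc7a2, so the KO-labelled group contained both ends. The log2 fold changes were 0.33 ± 0.49 for Slc7a1 and 0.87 ± 0.92 for Slc7a2 (SE), and that of Slc7a2 turned to -0.33 without KO replicate 2. Slc7a3 (CAT3) was at most 0.863 CPM.

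Carriers of glutamate and aspartate are best known for clearing glutamate in brain, and 3 of 5 were tested. Slc1a3 (GLAST), whose fold change had the largest SE of the tested carriers, was at 0.478, 90.1 and 0.238 CPM in KO replicates 1 to 3, against 49.4, 2.36 and 1.65 CPM in HET replicates 1 to 3. In each group 1 library, again KO replicate 2 or HET replicate 1, held nearly all of it, and the log2 fold change was 0.77 ± 2.20 (SE). Without KO replicate 2 that value was -5.58, so its direction rested on 1 library. Slc1a6 (EAAT4) was at 12.5, 25.5 and 20.3 CPM in KO replicates 1 to 3, against 23.4, 58.0 and 7.92 CPM in HET replicates 1 to 3, with both extremes in HET-labelled libraries. Slc1a2 (GLT-1) stayed at or under 2.25 CPM.

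Among carriers inside the cell or of less certain function, 4 of 6 were tested. Slc38a10, the second highest carrier per transcript length and of uncertain physiological role, was at 316, 245 and 193 CPM in KO replicates 1 to 3, against 351, 340.3 and 233 CPM in HET replicates 1 to 3. Its log2 fold change was -0.29 ± 0.29 (SE; adjusted p = 0.746, edgeR). Slc38a9, the lysosomal arginine sensor that acts on mTORC1, had one of the narrowest ranges, at 9.28, 7.31 and 8.01 CPM in KO replicates 1 to 3, against 6.16, 8.67 and 7.96 CPM in HET replicates 1 to 3. Its log2 fold change was 0.11 ± 0.28 (SE). Slc38a6 was at 3.73, 4.78 and 11.1 CPM in KO replicates 1 to 3, against 10.3, 10.6 and 8.20 CPM in HET replicates 1 to 3, so KO replicate 3 exceeded every HET-labelled library while the other two KO-labelled libraries were below them all. Slc7a4 was at most 2.07 CPM.

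Sugar carriers were mostly fitted lower in KO-labelled libraries, 8 of the 9 tested of 12 genes, against 49.1% of all tested genes. The sugar carriers had a median log2 fold change of -0.42 and a lowest adjusted p of 0.687 (edgeR). That median was -0.997 without KO replicate 3, -0.23 without KO replicate 2 and -0.85 with limma-voom. Slc2a1 (GLUT1), the main glucose carrier of proliferating cells and a known HIF-1 target, lies on chromosome 4 from 119108711 to 119137983 on the + strand. It was at 54.1, 63.2 and 169.8 CPM in KO replicates 1 to 3, against 152, 129 and 70.2 CPM in HET replicates 1 to 3. KO replicate 3 held the highest value of all 6 and HET replicate 3 lay beside the low KO-labelled libraries, so the groups overlapped. The log2 fold change was -0.29 ± 0.52 (SE; adjusted p = 0.867, edgeR). With each library left out it ran from -0.997 (without KO replicate 3) to -0.023 (without KO replicate 1), and it was -0.080 without KO replicate 2 and -0.056 without HET replicate 1. Without KO replicate 3 and HET replicate 2, the 2 libraries with many leukocyte transcripts, it was -0.95. Slc2a1 made up 50.3, 76.9 and 73.3% of the summed Slc2 transcript per length in KO replicates 1 to 3, against 73.2, 61.6 and 51.9% in HET replicates 1 to 3.

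The other sugar carriers had lower levels per transcript length. Slc2a8 (GLUT8), an intracellular hexose carrier, was at 16.7, 9.19 and 10.7 CPM in KO replicates 1 to 3, against 13.2, 17.8 and 17.3 CPM in HET replicates 1 to 3, with KO replicate 1 inside the HET range. Slc2a10 (GLUT10), whose loss in humans causes arterial tortuosity syndrome, had no count in KO replicate 2. That library's 35042817 counts allow a level of up to 0.0856 CPM of its unscaled total, by a limit of 3 counts that covers counting error only. In the other libraries Slc2a10 was at 14.6 and 22.8 CPM in KO replicates 1 and 3, against 27.8, 27.8 and 16.2 CPM in HET replicates 1 to 3. Slc2a6 (GLUT6), found on lysosomes, was at 0.933, 1.86 and 8.56 CPM in KO replicates 1 to 3, against 3.12, 7.71 and 6.55 CPM in HET replicates 1 to 3. The remaining tested sugar carriers include Slc2a9, known for urate, and Slc2a13, known for myo-inositol, and each had overlapping groups.

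Of the 4 carriers of lactate and pyruvate, 3 were tested, 2 fitted higher and 1 lower in KO-labelled libraries. Slc16a3 (MCT4), the low-affinity carrier known for lactate export from glycolytic cells and a HIF-1 target, lies on chromosome 11 from 120948480 to 120960868 on the + strand. It was at 4.41, 1.65 and 63.6 CPM in KO replicates 1 to 3, against 169.7, 151 and 14.5 CPM in HET replicates 1 to 3. The lowest values were in KO replicates 1 and 2 and the highest in HET replicates 1 and 2, while KO replicate 3 exceeded HET replicate 3, the 2 libraries whose titles share a number. The log2 fold change was -2.27 ± 1.49 (SE; adjusted p = 0.649, edgeR). Without KO replicate 3, the highest KO-labelled library, it was -5.20 (adjusted p = 0.393, edgeR). Without both libraries with many leukocyte transcripts it was -4.94 (adjusted p = 0.819, edgeR). With a term for the shared title number it was -4.15 (adjusted p = 0.737, edgeR). It was nearer 0 in other alternatives, at -1.74 without KO replicate 2, -1.80 without KO replicate 1, -1.83 without HET replicate 1 and -1.64 on log2(RPKM + 1).

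Slc16a1 (MCT1), a higher-affinity carrier that works in either direction (chromosome 3, from 104638668 to 104658462 on the + strand), was at 28.8, 66.0 and 46.5 CPM in KO replicates 1 to 3, against 35.4, 18.6 and 35.0 CPM in HET replicates 1 to 3. KO replicate 1 lay inside the HET range and the other two KO-labelled libraries above it, with a log2 fold change of 0.67 ± 0.39 (SE; adjusted p = 0.621, edgeR). As a share of the summed transcript of Slc16a3 and Slc16a1 per length, Slc16a3 made up 13.5, 2.49 and 58.3% in KO replicates 1 to 3, against 83.0, 89.2 and 29.7% in HET replicates 1 to 3. Slc16a1 was thus the more abundant in KO replicates 1 and 2 and in HET replicate 3. Slc16a7 (MCT2) was at most 5.14 CPM, in KO replicate 2, and Slc16a8 (MCT3), known from the retinal pigment epithelium, was not tested.

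**Figure D3:**
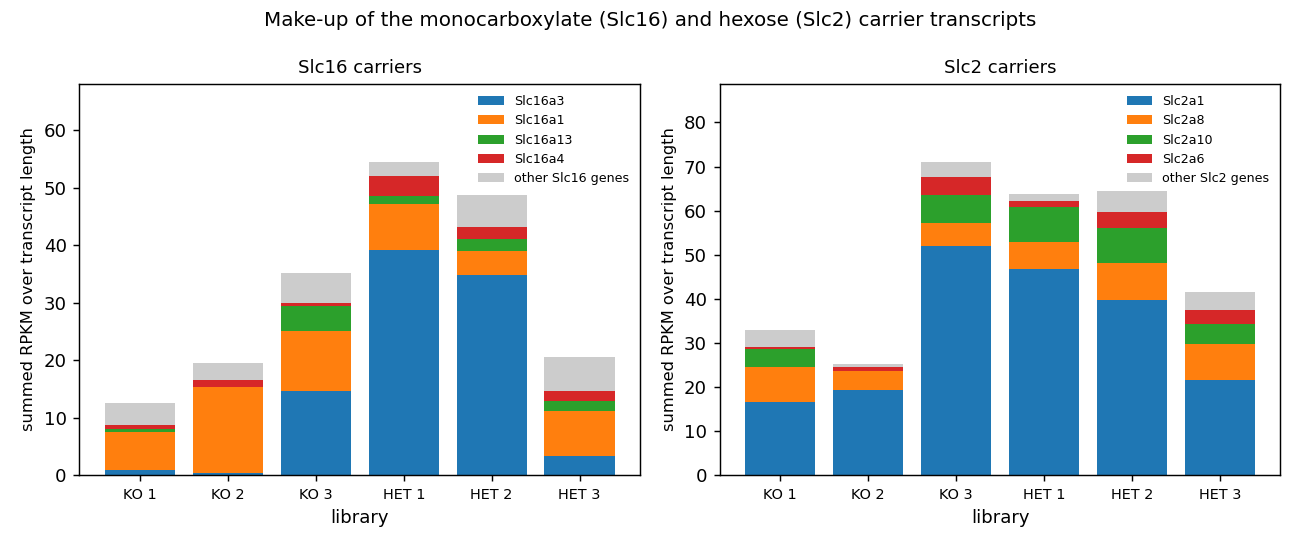
Summed RPKM over transcript length (y axis) of the monocarboxylate (Slc16, left) and hexose (Slc2, right) carriers in each library, KO libraries before HET libraries, stacked by gene. Slc16a3 fills most of the Slc16 bar in HET replicates 1 and 2 (71.8 and 71.3%) and 1.94% of it in KO replicate 2, while Slc2a1 is the largest piece of every Slc2 bar.

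MCT1 and MCT4 need the chaperone basigin, and embigin can take its place with MCT1 and MCT2. Basigin (Bsg) was at 453, 363 and 399 CPM in KO replicates 1 to 3, against 943, 674 and 406 CPM in HET replicates 1 to 3, with KO replicate 1 above HET replicate 3. Embigin (Emb) was at 18.5, 62.0 and 44.5 CPM in KO replicates 1 to 3, against 93.3, 80.0 and 136 CPM in HET replicates 1 to 3. The Emb groups did not overlap, and its log2 fold change was -1.31 ± 0.46 (SE; unadjusted p = 0.0287, adjusted p = 0.579, edgeR). For Bsg it was -0.74 ± 0.35 (SE; adjusted p = 0.592, edgeR).

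Promoters of Slc16a3 and Slc2a1 are shown because both genes were high in the same 3 libraries, KO replicate 3 and HET replicates 1 and 2, and that of Slc16a1 because it was not. The core ACGTG of the element that HIF-1 binds, on either strand, was in 24.5% of the carrier windows and in 16.6% of all windows. The E-box CACGTG, which contains those letters, was in 13.2% of the carrier windows and in 6.02% of all windows. An antioxidant element, TGACNNNGC, was in 9.43% of the carrier windows and in 10.2% of all windows. Slc16a3, at chr11:120948817-120949066 on the + strand, held 2 ACGTG cores ending 22 and 9 bases before the RefSeq start. Slc2a1, at chr4:119108495-119108744 on the + strand, held 1 ending 31 bases before its RefSeq start. The Slc16a3 window lies wholly inside the gene span given above, and so does the end of the Slc2a1 window. Slc16a1, at chr3:104638414-104638663 on the + strand, held a CACGTG ending 194 bases before the start. That E-box contains ACGTG, so the core does not set Slc16a1 apart from Slc16a3 and Slc2a1. Capitals mark the ACGTG cores and the CACGTG, 5′ to 3′.
Slc16a3: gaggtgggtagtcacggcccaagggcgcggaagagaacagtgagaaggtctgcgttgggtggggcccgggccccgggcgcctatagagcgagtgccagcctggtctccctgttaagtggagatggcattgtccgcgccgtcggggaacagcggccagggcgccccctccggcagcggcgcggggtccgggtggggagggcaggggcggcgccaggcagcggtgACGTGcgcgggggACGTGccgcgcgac
Slc2a1: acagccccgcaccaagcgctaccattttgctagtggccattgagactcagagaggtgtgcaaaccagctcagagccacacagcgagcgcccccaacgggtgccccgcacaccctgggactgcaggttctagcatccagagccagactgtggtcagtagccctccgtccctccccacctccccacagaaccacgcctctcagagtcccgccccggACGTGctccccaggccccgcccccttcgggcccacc
Slc16a1: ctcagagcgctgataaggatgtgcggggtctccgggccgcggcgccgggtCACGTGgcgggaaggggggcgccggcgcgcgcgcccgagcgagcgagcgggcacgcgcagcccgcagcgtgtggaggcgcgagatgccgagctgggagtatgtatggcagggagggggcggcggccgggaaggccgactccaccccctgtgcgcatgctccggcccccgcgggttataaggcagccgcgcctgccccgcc
No window was used for Slc1a5, Slc38a1 and Slc7a5.

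The less characterised Slc16 carriers were all fitted lower in KO-labelled libraries, 6 of the 6 tested of 8 genes, against 49.1% of all tested genes. Their log2 fold changes ran from -1.53 to -0.03, with a median of -0.44. For Slc16a13, Slc16a5 and Slc16a11 they were -0.15 ± 1.59, -0.27 ± 0.54 and -0.61 ± 1.92 (SE), each smaller than its error. Slc16a4, a carrier without a settled substrate (chromosome 3, from 107291230 to 107312115 on the + strand), was at 1.46, 2.84 and 1.35 CPM in KO replicates 1 to 3, against 7.86, 4.72 and 3.77 CPM in HET replicates 1 to 3. No KO-labelled library reached the lowest HET-labelled one, and the log2 fold change was -1.53 ± 0.49 (SE; unadjusted p = 0.0182, adjusted p = 0.579, edgeR). Its unadjusted p was under 0.05 in 12 of 17 alternative analyses, and not without KO replicate 1, KO replicate 3 or HET replicate 1, nor with either pair of libraries left out. Slc16a9, tied by human genetics to carnitine levels, was at 0.478, 1.81 and 1.23 CPM in KO replicates 1 to 3, against 2.62, 1.96 and 2.67 CPM in HET replicates 1 to 3. KO replicate 2 was just below HET replicate 2, and the log2 fold change was -1.04 ± 0.55 (SE; adjusted p = 0.596, edgeR).

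Slc16a13 and Slc16a11 lie beside each other on chromosome 11, from 70216789 to 70221064 and from 70212752 to 70216417, on opposite strands. Slc16a13 was at 1.30, 0 and 10.8 CPM in KO replicates 1 to 3, against 3.58, 5.46 and 4.31 CPM in HET replicates 1 to 3. Slc16a11 was at 0, 0 and 2.58 CPM in KO replicates 1 to 3, against 0.319, 2.36 and 1.18 CPM in HET replicates 1 to 3. Both were highest in KO replicate 3 and had no count in KO replicate 2, and their groups overlapped. Slc16a5 and Slc16a6 ranged from 0.465 to 1.65 CPM and from 0.660 to 4.40 CPM over the 6 libraries. Slc16a10, which lets aromatic amino acids out, was at 9.33, 4.88 and 3.85 CPM in KO replicates 1 to 3, against 2.20, 2.84 and 5.77 CPM in HET replicates 1 to 3.

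Single libraries often set a carrier's extremes. KO replicate 2 held the highest value of 11 of the 42 tested carriers (26.2%), against 26.3% of all tested genes. The other libraries held the highest value of 5 carriers in KO replicate 1 and 8 in KO replicate 3, against 4, 8 and 6 in HET replicates 1 to 3. Carriers without any count, of the 59, numbered 9, 13 and 6 in KO replicates 1 to 3, against 8, 6 and 7 in HET replicates 1 to 3. The plot of all tested carriers by library shows that the KO-labelled libraries did not share one profile.

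**Figure D4:**
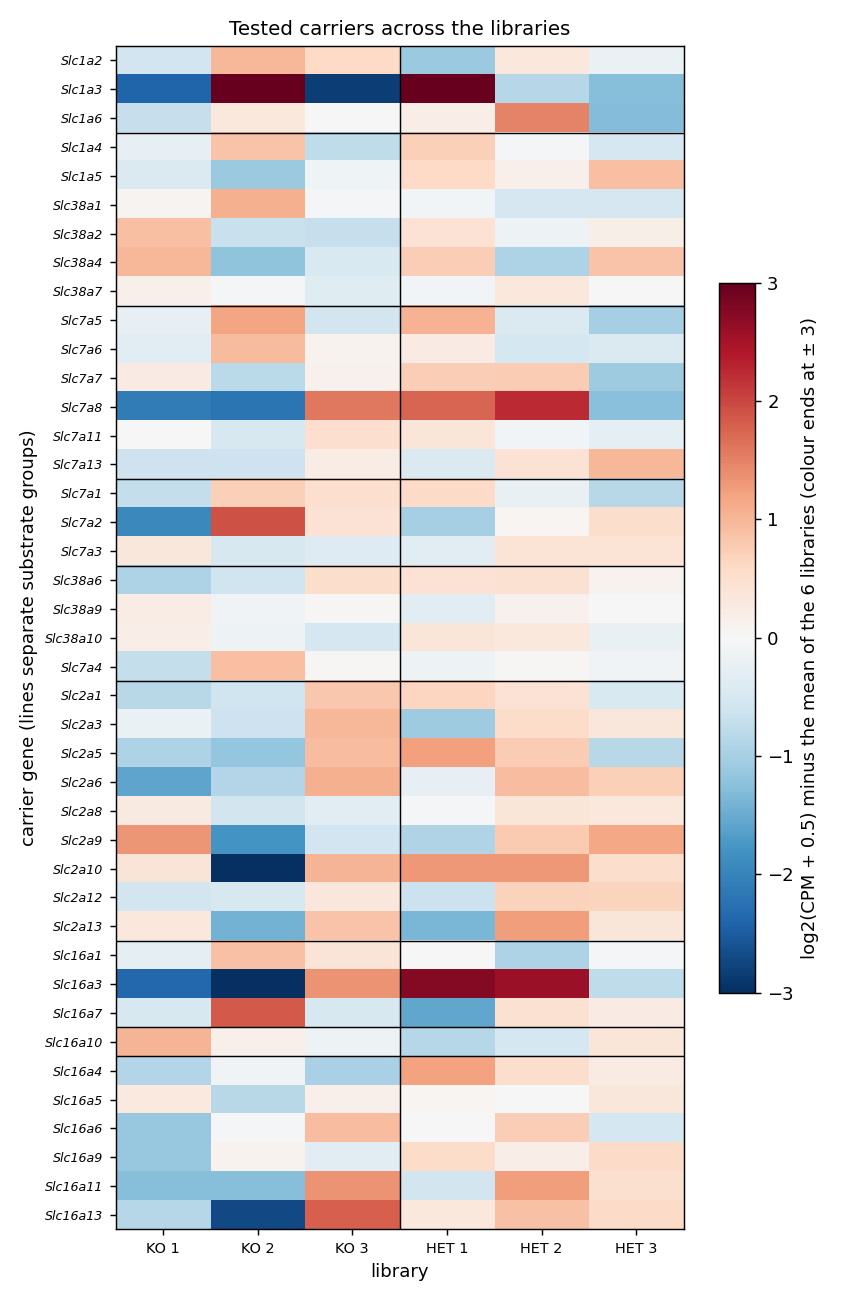
Tested carriers (rows, by substrate) in each library (columns, KO before HET), coloured by log2 CPM relative to each carrier's mean over the 6 libraries. Few rows change colour at the border between KO and HET columns; Slc1a5, Slc16a4 and Slc16a9 do, and rows such as Slc1a3, Slc7a8 and Slc16a3 are set by 1 to 3 libraries.

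Pathways around the carriers were read from the same fit, in lists written from each pathway's members. No gene of any list passed the adjusted threshold by edgeR. The counts below are fitted directions, and 49.1% of all tested genes were fitted lower. DESeq2 called 1 gene each of the ATF4, glycolysis and hypoxia lists, against 1.33% of all genes. It also called 2 genes of the carrier turnover and glucose sensing list, and 1 each of the fibroblast and epithelial markers. The fibroblast markers, given above, were fitted the same way as most of these lists. The proliferation genes and most epithelial markers were fitted the other way. The part of these markers and genes in the lists was not tested. For the ATF4 response to amino acid shortage, 14 of 16 genes were fitted lower in KO-labelled libraries, with a median log2 fold change of -1.02, and 7 of them had an unadjusted p under 0.05, against 4.29% of all genes on that side. In 9 of the 16 the KO values lay wholly below the HET values, against 7.42% of all genes. Atf5, a transcription factor of that response, was at 187, 113 and 249.6 CPM in KO replicates 1 to 3, against 598, 865 and 531 CPM in HET replicates 1 to 3. All 3 KO values were under the lowest HET value, and the log2 fold change was -1.86 ± 0.38 (SE, unadjusted p = 0.00229, adjusted p = 0.579 by edgeR and 0.00198 by DESeq2). Ddit3, Chac1, Nupr1 and Trib3 followed that order too. Among the carriers, Slc1a5 had KO values wholly below the HET values too, while Slc38a2, Slc7a5, Slc7a11 and Slc7a1 had overlapping groups. These 5 are often named as ATF4 targets and were taken from no fixed list.

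Txnip and Arrdc4 encode arrestin-like proteins that respond to glucose and that reduce glucose uptake, in part by drawing GLUT1 into the cell. Txnip was at 195, 93.7 and 141 CPM in KO replicates 1 to 3, against 405, 329 and 401 CPM in HET replicates 1 to 3. Arrdc4 was at 9.24, 20.8 and 27.9 CPM in KO replicates 1 to 3, against 51.3, 67.4 and 59.3 CPM in HET replicates 1 to 3. For both genes the KO values lay wholly below the HET values. The log2 fold changes were -1.40 ± 0.32 for Txnip and -1.62 ± 0.41 for Arrdc4 (SE; adjusted p = 0.579 for both by edgeR, and 0.0154 for Txnip and 0.0427 for Arrdc4 by DESeq2). The list of carrier turnover and glucose sensing had 1 gene fitted higher and 5 lower of 6 tested. In 2 of the 6 the KO values lay wholly below, against 7.42% of all genes.

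Glycolysis and lactate enzymes were fitted lower in KO-labelled libraries in 16 of 17 genes (median log2 fold change -0.65), against 49.1% of all tested genes. Of the 17, 2 were lower with an unadjusted p under 0.05 (edgeR), against 4.29% of all genes. The 17 genes summed to 4928, 5793 and 6118 CPM in KO replicates 1 to 3, against 11745, 9285 and 5528 CPM in HET replicates 1 to 3. HET replicate 3 was thus inside the KO range. Pdk1, a pyruvate dehydrogenase kinase, was the 1 gene of the 17 without overlap, where 7.42% of all genes lay wholly below. It was at 17.6, 24.0 and 29.5 CPM in KO replicates 1 to 3, against 192, 122 and 32.4 CPM in HET replicates 1 to 3, with HET replicate 3 just above the KO-labelled libraries. Hypoxia factors and short targets were fitted lower in 8 of 9 genes (median -1.40), among them Hif1a at 62.0, 60.1 and 133 CPM in KO replicates 1 to 3, against 557, 286 and 145 CPM in HET replicates 1 to 3. Glutamine and amino acid enzymes divided into 6 fitted higher and 11 lower, with a median of -0.22. Got2, the mitochondrial aspartate aminotransferase, was at 222, 294 and 161 CPM in KO replicates 1 to 3, against 148, 109 and 149 CPM in HET replicates 1 to 3, and the groups did not overlap. Its log2 fold change was 0.73 ± 0.29 (SE; adjusted p = 0.579, edgeR). The lists for cystine, glutathione and NRF2 targets (3 higher and 9 lower of 12, median -0.10) and for amino acid sensing by mTORC1 (3 higher and 9 lower of 12, median -0.14) had medians closer to the 0.01 of all genes.

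**Figure D5:**
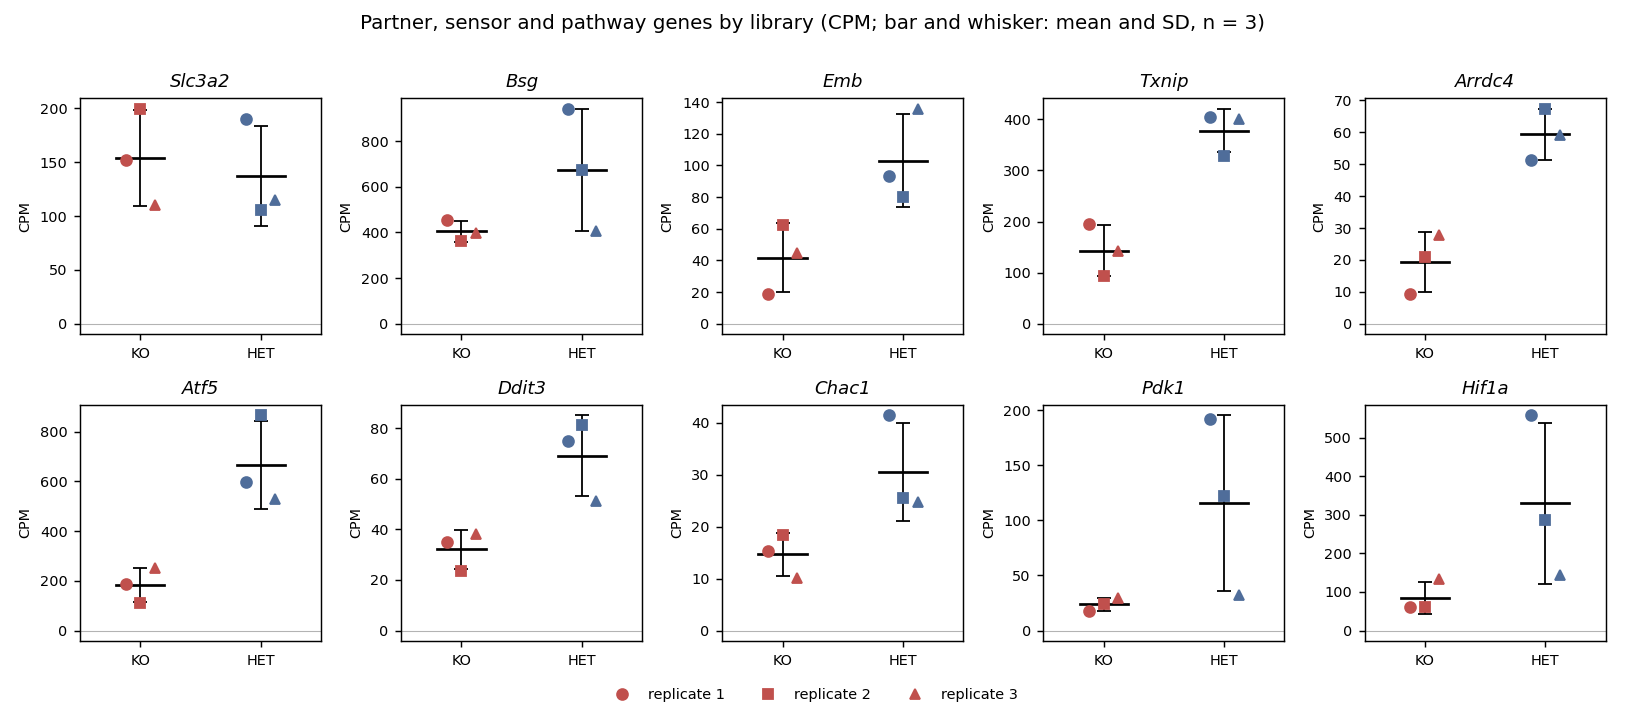
CPM (y axis) of partner subunits and pathway genes in each library, KO left and HET right, with the symbol giving the replicate and the bar and whisker the mean and SD of 3 libraries. Emb, Txnip, Arrdc4, Atf5, Ddit3, Chac1, Pdk1 and Hif1a lie below HET in all 3 KO-labelled libraries, while Slc3a2 and Bsg overlap.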

How the data were processed

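RNA from cultured cells, isolated with Trizol, was depleted of ribosomal RNA for strand-specific libraries, per the labels' protocols. Partek, Bowtie2 and cutadapt 1.2.1 appear in the submitters' processing notes, with mm10 and GRCm38 as builds. How reads were counted, with or without strand, and on which annotation were not given in the sources at hand, so overlapping neighbours, among them Slc16a6, Slc7a7 and Slc7a4, may share reads. For each library the authors deposited 2 tables, one of estimated counts without scaling (84.4% of the values whole) and one of RPKM. The deposited RPKM was tested against GENCODE M21 lengths. In 86.5 to 86.7% of genes over 50 counts it matched the gene's genomic span, introns included, within 0.1%, and in 0.0653 to 0.0838% the main transcript. Levels between genes were therefore recomputed per transcript length, and reads from introns may be in them.

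Of 48408 rows, 30 with a biotype in place of the gene were left out, and 7 symbols on more than 1 row were summed. Counts were rounded, filtered with filterByExpr, scaled by TMM and tested with the two-sided quasi-likelihood test of edgeR 4.0.16 (R 4.3.3), 3 KO against 3 HET libraries, with Benjamini-Hochberg adjustment over all 17584 genes and a threshold of 0.05. SE was the absolute log2 fold change over the square root of F. The fit was tested on simulated data. Alternatives were RLE scaling, library size alone, other filters, DESeq2 1.42.0, limma 3.58.1 (voom and log2(RPKM + 1 or 0.1)), a term for the title number that HET replicate 3 and KO replicate 3 share, and leaving libraries out. Replicate numbers follow accession order and pair nothing. A DESeq2 adjusted p given as missing stayed missing. Named carriers were the up to 4 tested ones of highest mean deposited RPKM, which is over genomic span, in each substrate group. Those with an unadjusted p under 0.05 or groups without overlap were named too. From each pathway list, up to 3 genes of smallest p could be named. Chac1 and Nupr1, like the carrier Slc7a8, were named after their values were seen. So were Slc16a12, Slc38a3 and Slc2a5, which are given by library in the last section. Other carriers outside the rule are named by their range or in passing. For 1 carrier, values are not reported here or drawn as a row in the plots, though the counts over all carriers include it. The carriers, lists and tests were chosen with earlier results of these data known. Promoters came from RefSeq (GRCm38.p6).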

Additional observations from a re-analysis of the deposited data

How the results depend on the processing

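No carrier passed the adjusted threshold in any of the 17 alternatives, and 16 of the 32 carriers named by the rule and reported here kept their direction in all of them. Slc7a3 kept it in the 16 that tested it. Over all genes, DESeq2 called 232 and edgeR 0. Scaling by library size alone moved the median of all genes to 0.15 (log2), where 1200 genes with an unadjusted p under 0.05 were higher and 532 lower, against 756 higher and 755 lower with TMM. At a depth of 24954273 counts or more, carriers of a few counts per library could not be tested. No paired analysis was possible because the labels give the groups only 1 number in common. The causes of the shifts below were not tested. Leaving out the libraries with leukocyte transcripts was chosen after seeing the data.

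Carriers at an unadjusted p under 0.05 numbered 5 of 58 with no filter (6.55% of all genes), 9 of 41 without the pair of libraries that share a title number (8.67%), 4 of 38 without both libraries with leukocyte transcripts (5.61%), and 2 to 11 with each library left out. The 11 of 43 came without KO replicate 3 (12.5% of all genes), and 4 of 42 came without KO replicate 2 (5.09%). Carriers without overlap numbered 18 of 41 without the shared-number libraries (43.7% of all genes) and 11 of 38 without the leukocyte libraries (37.5%), both with 2 libraries against 2. They numbered 4 to 15 with each library left out, the 15 of 43 again without KO replicate 3 (33.5% of all genes).

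Group medians of log2 fold change moved as follows. For acidic amino acids the median was -0.61 with no filter, -0.32 with limma-voom, -0.11 with the shared-number term, -0.19 without those libraries, and -0.88 (without KO replicate 2) to 1.36 with each library left out. Light chains stood at -1.51 with no filter, 0.047 with at least 1 CPM in 3 libraries, and -0.50 (without HET replicate 3) to 0.040 (without HET replicate 1) with each library left out. Hexose carriers ran from -0.997 (without KO replicate 3) to -0.23 (without KO replicate 2). Intracellular carriers stood at 0.055 by library size, -0.30 with at least 1 CPM in 3 libraries, 0.071 without the leukocyte libraries, and -0.34 to 0.00030 with each library left out. Lactate carriers stood at 0.0089 and 0.078 on log2(RPKM + 1) and log2(RPKM + 0.1), and at -0.70 (without KO replicate 2) to 0.93 with each library left out. Other Slc16 carriers stood at -1.39 with limma-voom, -1.28 with the shared-number term, -1.38 without those libraries, -1.24 without the leukocyte libraries, and -1.21 (without KO replicate 3) to 0.0042 with each library left out. With each library left out, small neutral carriers ran from -0.58 to 0.067 and cationic carriers from -0.32 to 0.65.

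Single carriers that turned were Slc1a4 (0.14 by library size, 0.033 on log2(RPKM + 1), 0.019 on log2(RPKM + 0.1), 0.15 without the leukocyte libraries), Slc38a2 (0.025 by library size, 0.14 without the shared-number libraries, 0.0098 without the leukocyte libraries) and Slc1a3 (-1.19 with limma-voom, -0.11 with the term). Without the shared-number libraries Slc7a11 was at -0.40 and Slc7a1 at -0.10. Without the leukocyte libraries Slc1a6 was at 0.25, Slc38a7 at 0.080 and Slc7a11 at -0.31. With each library left out, the lowest and highest values were -8.48 and 0.18 for Slc16a11, -2.76 and 0.42 for Slc16a13, -0.59 and 0.11 for Slc16a5, -0.70 and 1.60 for Slc16a7, -5.58 and 3.92 for Slc1a3, and -0.63 and 0.36 for Slc1a4. They were -1.06 and 0.31 for Slc1a6, -0.85 and 0.17 for Slc38a2, -0.014 and 0.21 for Slc38a9, -0.23 and 0.27 for Slc7a11, -0.33 and 1.39 for Slc7a2, -0.40 and 0.87 for Slc7a4, and -0.52 and 1.05 for Slc7a5.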

Other observations

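A few carriers of low level carried signal in 1 to 3 libraries. Slc16a12, known for creatine, was at 1.14, 0.0517 and 0.119 CPM in KO replicates 1 to 3, against 0, 0.0853 and 0 CPM in HET replicates 1 to 3, and was not tested. Slc38a3 (SNAT3), a liver and kidney glutamine carrier, was at 0.0455, 0.207 and 0.0793 CPM in KO replicates 1 to 3, against 0.0708, 0.0569 and 1.22 CPM in HET replicates 1 to 3. The fructose carrier Slc2a5 was at 0.114, 0.0258 and 1.74 CPM in KO replicates 1 to 3, against 2.27, 1.48 and 0.157 CPM in HET replicates 1 to 3, high in the same libraries as Slc7a8 and Slc16a3.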
